A study of Mus musculus with 6 samples.

Results

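The genes described here are 10 components of bone morphogenetic protein (BMP) signaling, chosen by name from the 24736 gene symbols in the deposited expression table. They are the ligands Bmp2, Bmp4 and Bmp7, the type I receptor Bmpr1a and the type II receptor Bmpr2, the receptor-regulated SMADs Smad1 and Smad5, the common partner Smad4, and the inhibitory SMADs Smad6 and Smad7. All 10 symbols were present in the table. Expression was measured by RNA sequencing of epithelial crypts, which were freed from the full length of the mouse gut by incubation for 30 minutes in 2 mM EDTA. There were 3 libraries from WT mice and 3 from mice labelled Mtg16 KO, all males aged 12 weeks and with no other treatment. MTG16, encoded by Cbfa2t3, is a transcriptional co-repressor, and the study asked what its loss does to stem cell exit and fate choice in the crypt. The sample labels call the knockout CRISPR-induced, whereas the study's methods describe a donated Mtg16−/− line, and which of these applies to the libraries is not resolved here. No source used here names a driver that restricts the loss to the epithelium. Values are TPM, a transcript abundance corrected for gene length and scaled to the same total in each library. SE below is the standard error of a log2 fold change.

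BMP ligands are secreted dimers that bring type I and type II receptor kinases together. The type I receptor phosphorylates SMAD1 and SMAD5, which bind SMAD4, enter the nucleus and switch on target genes such as the Id genes, while SMAD6 and SMAD7 are induced by the pathway and damp it. In the intestine, BMP signaling is known to be low at the crypt base, where stem cells sit, and to rise toward the villus, with much of the ligand and most of the secreted antagonists made by the mesenchyme below the epithelium.

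Cbfa2t3 had a TPM between 3.67 and 6.69 in WT and between 3.23 and 6.43 in Mtg16 KO libraries, and a value summed over exons cannot show a missing exon, so every direction given here rests on the labels. The libraries were epithelial, with a TPM of Krt19, an epithelial keratin, of 3272 on average. The 6 epithelial markers summed to between 9128 and 10131 in WT and between 8769 and 9960 in Mtg16 KO libraries. The 12 fibroblast and muscle markers summed to at most 9.20, with the fibroblast genes Lum and Foxl1 listed at 0 in every library and Myh11, a smooth muscle myosin and the highest of the list, at 1.44 on average. The 6 endothelial markers summed to at most 3.21, most of it Pecam1. Leukocyte transcripts were present, with 6 markers summing to between 54.2 and 90.9 in WT and between 30.7 and 66.8 in Mtg16 KO libraries, the T cell receptor subunit Cd3e leading. The summed levels of the enterocyte list were lower in every Mtg16 KO library, at 5174 to 9848 against 9971 to 30173. The stem cell list (1485 to 1938 against 804 to 1384), the Paneth cell list (24001 to 29484 against 8988 to 19571) and the enteroendocrine list (347 to 378 against 199 to 245) were higher in every one. The stem cell sum was mostly Olfm4 (mean TPM 1188) and the Paneth cell sum mostly Defa24 (8907) and Defa17 (5886). Gene by gene, the groups did not overlap in 3 of 8 enterocyte, 3 of 6 stem cell, 5 of 6 Paneth cell and 5 of 6 enteroendocrine markers. Over the 12268 genes that averaged 1 TPM or more, they did not overlap in 21.0% (9.94% higher and 11.1% lower). The goblet cell list overlapped, at 4984 to 7441 in Mtg16 KO against 6127 to 10789 in WT, with 5 of 6 markers lower on average and the groups of Zg16 and Clca1 apart. In bulk libraries such as these, fewer cells of a type and less RNA per cell cannot be told apart. WT replicate 1 stood apart, with an enterocyte sum of 30173 against 12548 in the next highest library.

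**Figure D1:**
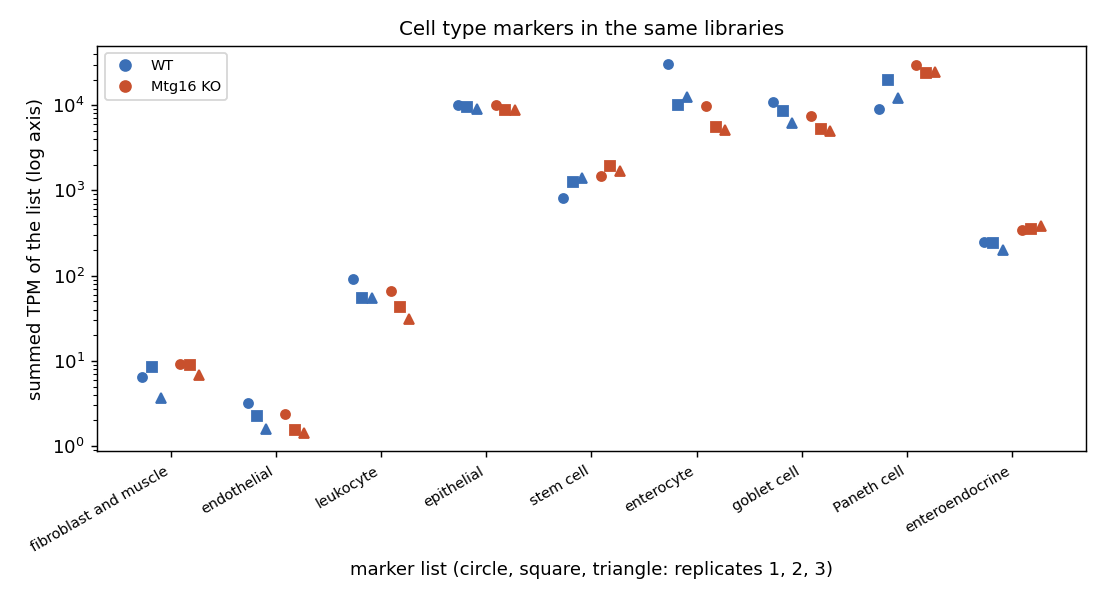
Summed TPM of 9 marker lists (log axis) in each library, with WT in blue and Mtg16 KO in red, and circles, squares and triangles for replicates 1, 2 and 3. Enterocyte sums in Mtg16 KO libraries, 5174 to 9848, lie below all WT sums, while fibroblast and muscle sums stay at or under 9.20 in both groups.

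Promoter stretches of 2 components and 3 targets are shown. In them Id2, Id3 and Id4, known targets of the BMP SMADs, can be read beside a receptor and a SMAD from upstream of them. Each is the 250 bases before the annotated start in RefSeq GRCm38.p6, written 5′ to 3′ on the gene's strand. Capitals mark GGCGCC, a GC-rich sequence that SMAD1 and SMAD5 are known to bind, and which reads the same on both strands. The stretches are chr1:59764029-59764278 on the plus strand for Bmpr2, chr8:79399429-79399678 on the minus strand for Smad1, chr12:25096093-25096342 on the minus strand for Id2, chr4:136143572-136143821 on the plus strand for Id3 and chr13:48260866-48261115 on the plus strand for Id4.
Bmpr2: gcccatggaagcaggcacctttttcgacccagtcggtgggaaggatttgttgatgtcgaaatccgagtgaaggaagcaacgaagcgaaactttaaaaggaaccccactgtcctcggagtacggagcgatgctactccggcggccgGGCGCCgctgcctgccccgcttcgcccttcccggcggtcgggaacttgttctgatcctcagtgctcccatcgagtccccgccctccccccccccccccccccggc
Smad1: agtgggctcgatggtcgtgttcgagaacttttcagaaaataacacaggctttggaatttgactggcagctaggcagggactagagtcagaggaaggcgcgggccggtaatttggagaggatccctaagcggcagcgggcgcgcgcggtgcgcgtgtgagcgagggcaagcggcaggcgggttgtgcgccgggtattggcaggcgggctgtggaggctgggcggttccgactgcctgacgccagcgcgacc
Id2: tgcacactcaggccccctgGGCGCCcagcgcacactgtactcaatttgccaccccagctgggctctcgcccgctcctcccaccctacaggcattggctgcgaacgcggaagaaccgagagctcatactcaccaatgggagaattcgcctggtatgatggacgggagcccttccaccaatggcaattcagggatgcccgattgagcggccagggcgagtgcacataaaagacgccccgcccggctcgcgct
Id3: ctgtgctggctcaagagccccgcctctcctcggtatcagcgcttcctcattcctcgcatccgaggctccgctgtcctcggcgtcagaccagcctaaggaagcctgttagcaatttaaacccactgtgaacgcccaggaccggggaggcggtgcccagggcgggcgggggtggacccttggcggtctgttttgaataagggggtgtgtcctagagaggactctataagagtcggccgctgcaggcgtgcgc
Id4: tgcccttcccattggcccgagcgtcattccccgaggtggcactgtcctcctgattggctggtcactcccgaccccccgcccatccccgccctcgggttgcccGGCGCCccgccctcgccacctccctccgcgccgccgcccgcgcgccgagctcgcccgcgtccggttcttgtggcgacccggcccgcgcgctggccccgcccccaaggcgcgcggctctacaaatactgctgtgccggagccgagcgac
GGCGCC was found once each in the Bmpr2, Id2 and Id4 stretches, beginning 105, 231 and 148 bases before the start, and was not found in those of Smad1 and Id3. Among stretches not printed, it was found in that of Bmpr1a, 198 bases before the start, and in 1 of the 3 listed for Smad5, 19 bases before the start. These 2 starts, and both matches, lie inside the gene spans given below. The Bmpr1a stretch is chr14:34502547-34502796 on the minus strand, and that of Smad5 is chr13:56702802-56703051 on the plus strand. GGCGCC was not found in the stretches of Bmp4, Smad6, Atoh8, Msx1, Msx2, Tgif1, Tob1 or Fstl1. Among all 32851 promoter stretches of this length in the RefSeq table, 9.59% held it. The printed stretches were 62.8 to 75.6% G or C, and the share over all stretches was not matched for this content. The second sequence searched, GTCTG or CAGAC on the other strand, was found 2 times in the Id3 stretch and in none of the other 4, against 42.2% of all stretches. These matches describe letters in a window and no binding was measured in these libraries. Of the 10 components, 6 had an entry in the promoter table, as did 6 of 8 BMP target genes. Id1 had none.

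The 10 components covered a wide range of transcript levels in the crypts. Smad4 had the highest level, with a mean TPM of 78.8 ± 8.36 (SD over 6 libraries), followed by Smad1 at 54.0 ± 4.12 and Bmpr1a at 39.3 ± 3.55, and the ranges of these 3 genes over the libraries did not overlap. Smad7 came next at 22.4 ± 6.98, and Smad5 followed at 13.7 ± 2.48. Smad7 was above Smad5 in 6 of 6 libraries, although their ranges over the libraries overlapped. Bmpr2 (10.8 ± 1.72), Bmp2 (10.035 ± 3.81) and Smad6 (9.23 ± 1.51) were not separated, since Bmpr2 exceeded Bmp2 in 4 of 6 libraries and Bmp2 exceeded Smad6 in 2 of 6. Bmp7 was lower, at 6.61 ± 1.47, and Bmp4 was close to absent from the table, at 0.147 ± 0.0880.

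None of the 10 components separated the genotypes. Differences were tested with limma's moderated test on log2(TPM + 1) in the 12268 genes that averaged 1 TPM or more, and genes were called at a Benjamini-Hochberg adjusted p under 0.1. Bmp4 was below that minimum, and of the 9 components tested 0 were called, against 0.0326% of all tested genes (4 genes, 0.0163% in each direction). At an unadjusted p under 0.05 the count was also 0 of 9, against 14.6% of all tested genes (6.53% higher and 8.05% lower). The groups overlapped in each of the 9, whereas in 21.0% of all tested genes they did not. The median log2 fold change of the 9 components, as Mtg16 KO relative to WT, was 0.066, beside -0.026 over all tested genes, with 5 components higher and 4 lower. Their median absolute log2 fold change was 0.12, beside 0.19 over all tested genes.

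**Figure D2:**
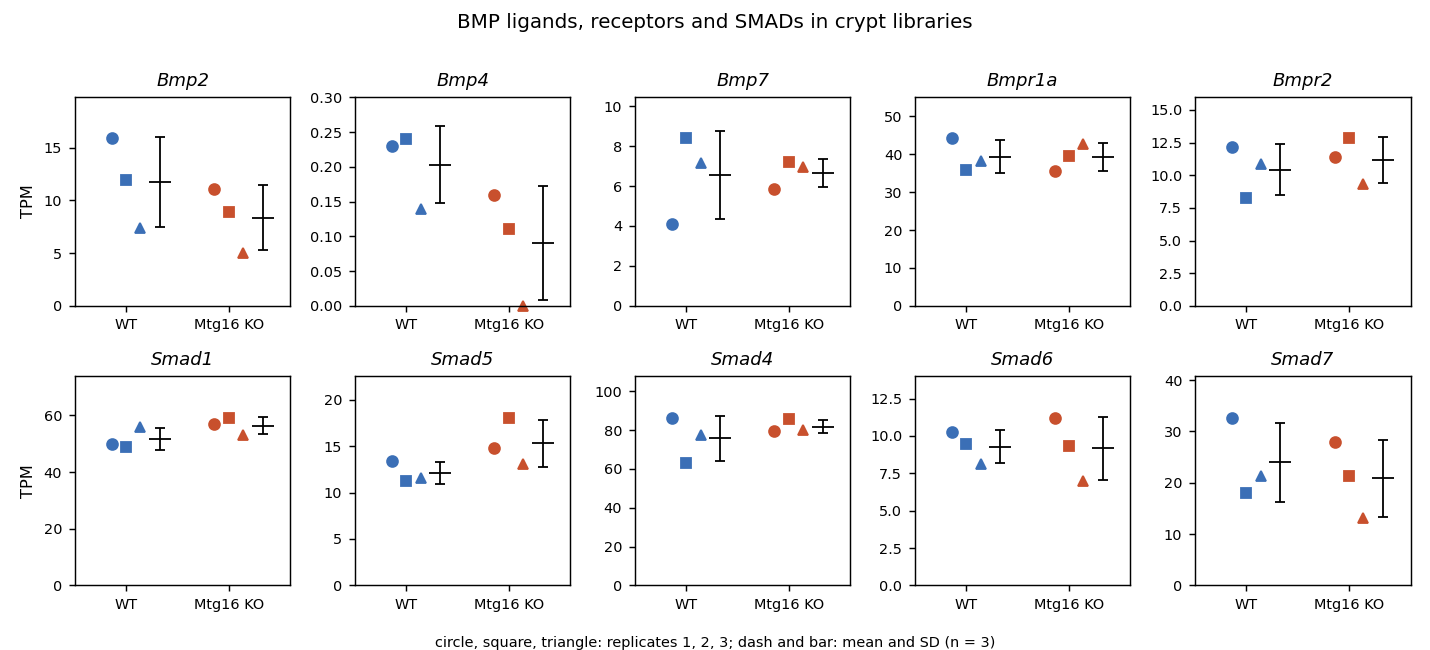
TPM of the 10 components in each library, on axes from 0, with replicates 1, 2 and 3 as circles, squares and triangles and the mean and SD of each genotype beside them (n = 3). WT and Mtg16 KO values overlap in every panel, and Bmp4 stays at or under 0.24 in all libraries.

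Among the ligands, Bmp2, which epithelial cells of the upper crypt and villus are known to make, had a TPM of 15.9, 12.0 and 7.37 in WT and of 11.1, 8.94 and 4.99 in Mtg16 KO libraries. WT replicate 1 was the highest and Mtg16 KO replicate 3 the lowest, and the other 4 values were interleaved. The gene, on chromosome 2 from 133552159 to 133562896 (GRCm38.p6), had the largest difference of the 9 components, a log2 fold change of -0.45 (SE 0.33, 95% interval -1.20 to 0.30, limma adjusted p = 0.529). The exact permutation test on the same values gave p = 0.4 (two-sided), and 3 libraries against 3 cannot go below 0.1. With 1 library left out, the log2 fold change was -0.22 without WT replicate 1 and -0.16 without Mtg16 KO replicate 3, but -0.72 without WT replicate 3 and -0.66 without Mtg16 KO replicate 1. With array weights, which let libraries close to their group count for more, it was -0.0090. The enterocyte sum was lower in every Mtg16 KO library, but it ranked the libraries in another order than Bmp2. WT replicate 3 was above Mtg16 KO replicates 1 and 2 in enterocyte sum (12548 against 9848 and 5513) and below both in Bmp2. Of the enterocyte markers, 8 of 8 were below WT in mean log2 level, 6 of them at an unadjusted p under 0.05. Over all tested genes, 8.05% were lower at that limit. The leukocyte list had 6 of 6 markers below WT and none at that limit. Among these, Cd79a had a log2 fold change of only -0.0071, and its mean TPM was higher in Mtg16 KO (9.46) than in WT (9.29). The goblet cell list had 5 of 6 markers below WT and 2 at that limit. Its marker Muc2, alone in the list, ranked the libraries in the same order as Bmp2, a match seen after the values were known. The part of any of these cell types in the Bmp2 values was not tested.

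The 3 tested genes whose levels followed Bmp2 most closely over the 6 libraries were Tmem150b, 6330407A03Rik and Il2rg, a receptor subunit of lymphocytes. Likeness was the root mean square difference between centred log2(TPM + 1) values, which was 0.0653, 0.0681 and 0.0714 for these genes, while Bmp2 itself deviated from its mean by 0.478. Tmem150b, the closest, had a TPM of 80.7, 58.4 and 42.3 in WT and of 58.3, 47.6 and 30.5 in Mtg16 KO libraries. 6330407A03Rik was low, with a TPM of at most 2.05. Il2rg had a TPM of 8.31, 5.97 and 3.65 in WT and of 6.45, 4.36 and 2.52 in Mtg16 KO libraries. No marker of the leukocyte list ranked the libraries in the order of Bmp2. The likeness is a description over 6 libraries.

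Bmp7, a ligand of the same family, had a TPM of 4.09, 8.38 and 7.16 in WT and of 5.87, 7.19 and 6.94 in Mtg16 KO libraries. WT replicate 1, the highest library for Bmp2, was the lowest for Bmp7. The gene lies on chromosome 2 from 172868012 to 172940321, and its log2 fold change was 0.066 (SE 0.24, 95% interval -0.49 to 0.62, limma adjusted p = 0.914). Bmp4, the ligand best known from the mesenchyme around the crypt and located on chromosome 14, had a TPM of 0.23, 0.24 and 0.14 in WT and of 0.16 and 0.11 in Mtg16 KO replicates 1 and 2, and was listed at 0 in Mtg16 KO replicate 3. It overlaps Gm15217, which was listed at 0 in every library. These values are near the limit of the 2 decimals in the table, and no fold change is given. The low level stood beside the near absence of the fibroblast and muscle list, and a link between them was not tested.

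Neither receptor was called, and both overlapped between the genotypes. Bmpr1a, the type I receptor, had a TPM of 44.2, 35.9 and 38.1 in WT and of 35.5, 39.5 and 42.8 in Mtg16 KO libraries. Each group contained values near the top and near the bottom of the range. It lies on chromosome 14 from 34411061 to 34503336, and its log2 fold change of -0.0039 had an SE of 0.13 and a 95% interval from -0.31 to 0.30 (limma adjusted p = 0.992), with a sign that turned under rescaling of the libraries. Bmpr2, the type II receptor, had a TPM of 12.1, 8.29 and 10.8 in WT and of 11.4, 12.8 and 9.29 in Mtg16 KO libraries. The lowest value of all was in WT and the highest in Mtg16 KO, with the rest interleaved. On chromosome 1 from 59764279 to 59878081, it had a log2 fold change of 0.095 (SE 0.18, 95% interval -0.33 to 0.52, limma adjusted p = 0.831). The intervals leave room for changes of either sign within these bounds.

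The receptor-regulated SMADs carry the signal into the nucleus, and of all 9 tested components Smad5 had the smallest unadjusted p. Its TPM was 13.4, 11.3 and 11.6 in WT and 14.8, 18.1 and 13.1 in Mtg16 KO libraries. Only WT replicate 1 and Mtg16 KO replicate 3 crossed, by less than the SD of either group. Smad5 lies on chromosome 13 from 56703010 to 56742378 and had a log2 fold change of 0.31 (SE 0.16, 95% interval -0.053 to 0.67, unadjusted p = 0.0845, limma adjusted p = 0.397). The exact permutation test gave p = 0.2 (two-sided). With array weights the value was 0.46 and passed the threshold (limma adjusted p = 0.0983), and without Mtg16 KO replicate 2 it was 0.19 (limma adjusted p = 0.683). That setting called 6.97% of all tested genes and gave WT replicate 1 the lowest weight, 0.320.

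Smad1, the more abundant partner of Smad5, had a TPM of 49.9, 48.7 and 56.0 in WT and of 57.0, 59.1 and 53.1 in Mtg16 KO libraries. The 2 lowest values were WT and the 2 highest Mtg16 KO, with the remaining pair crossed. It lies on chromosome 8 from 79338395 to 79399428, and its log2 fold change was 0.13 (SE 0.12, 95% interval -0.14 to 0.40, limma adjusted p = 0.608). Within a library, Smad1 stood above Smad5 by 1.82 to 2.18 on the log2(TPM + 1) scale in WT and by 1.66 to 1.94 in Mtg16 KO, a balance that was compared after the values were seen and that overlapped between the genotypes (exact permutation test, two-sided, p = 0.3). Smad4, the shared partner of the BMP and TGF-beta branches, had a TPM of 86.3, 63.3 and 77.6 in WT and of 79.5, 85.8 and 80.2 in Mtg16 KO libraries. All Mtg16 KO values fell inside the WT range. The gene is on chromosome 18 from 73634790 to 73703791, and its log2 fold change was 0.12 (SE 0.14, 95% interval -0.20 to 0.44, limma adjusted p = 0.698).

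The inhibitory SMADs are themselves BMP and TGF-beta targets. Smad7, which recruits ubiquitin ligases to the receptors, had a TPM of 32.6, 18.03 and 21.3 in WT and of 28.0, 21.4 and 13.1 in Mtg16 KO libraries. As for Bmp2, the highest library was WT replicate 1 and the lowest Mtg16 KO replicate 3. It lies on chromosome 18 from 75367365 to 75395935, with a log2 fold change of -0.21 (SE 0.30, 95% interval -0.90 to 0.48, limma adjusted p = 0.752), and without either of those libraries the sign turned, to 0.024 and 0.071 respectively. Smad6, the more BMP-selective of the pair, had a TPM of 10.3, 9.44 and 8.09 in WT and of 11.2, 9.35 and 6.98 in Mtg16 KO libraries. Its highest and lowest values were both in Mtg16 KO, and on chromosome 9 from 63953076 to 64022085 it had a log2 fold change of -0.030 (SE 0.19, 95% interval -0.47 to 0.41, limma adjusted p = 0.956).

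**Figure D3:**
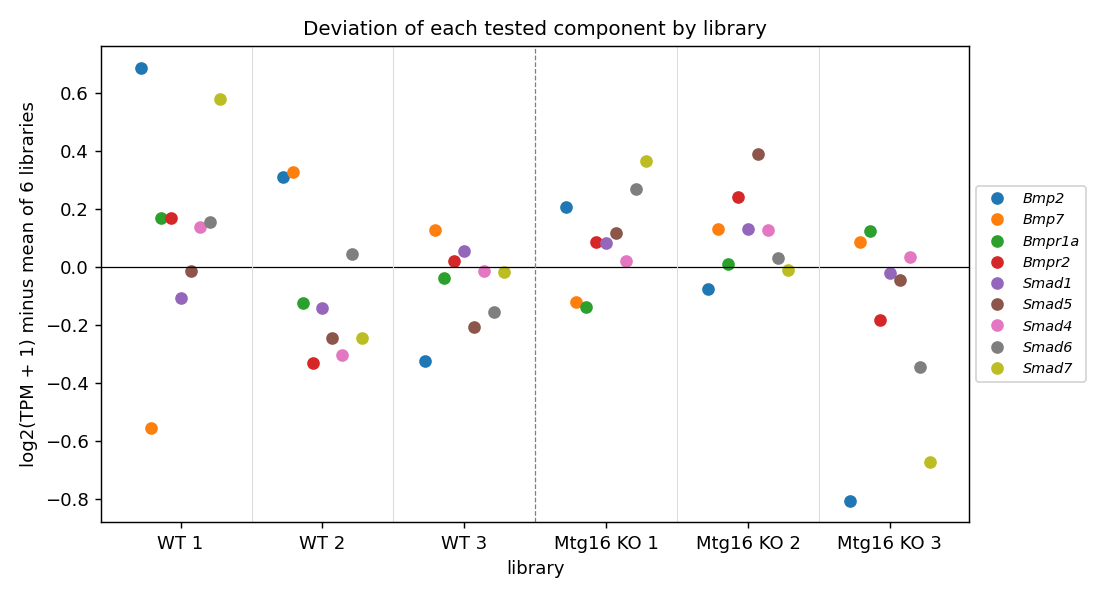
Deviation of log2(TPM + 1) from the mean of the 6 libraries for each of the 9 tested components, by library, with WT left of the dashed line. Bmp2 and Smad7 are highest in WT replicate 1 and lowest in Mtg16 KO replicate 3, while Smad1 and Smad4 stay near 0 in most libraries.

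Around these components, 62 further genes of the pathway were followed in 6 lists, and 33 of them were tested. None was called at an adjusted p under 0.1. At an unadjusted p under 0.05 there were 7 of the 33, 6 higher and 1 lower, beside 14.6% of all tested genes (6.53% higher and 8.05% lower). The groups did not overlap in 7 of the 33, again 6 higher and 1 lower, beside 21.0% of all tested genes (9.94% higher and 11.1% lower). The median log2 fold change of the 33 was 0.037. Without WT replicate 1, the library that stood apart, 3 of the 33 were at an unadjusted p under 0.05 beside 11.4% of all tested genes. Without Mtg16 KO replicate 2 there were 2 beside 8.38%, and without Mtg16 KO replicate 3 there were 3 beside 8.60%.

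**Figure D4:**
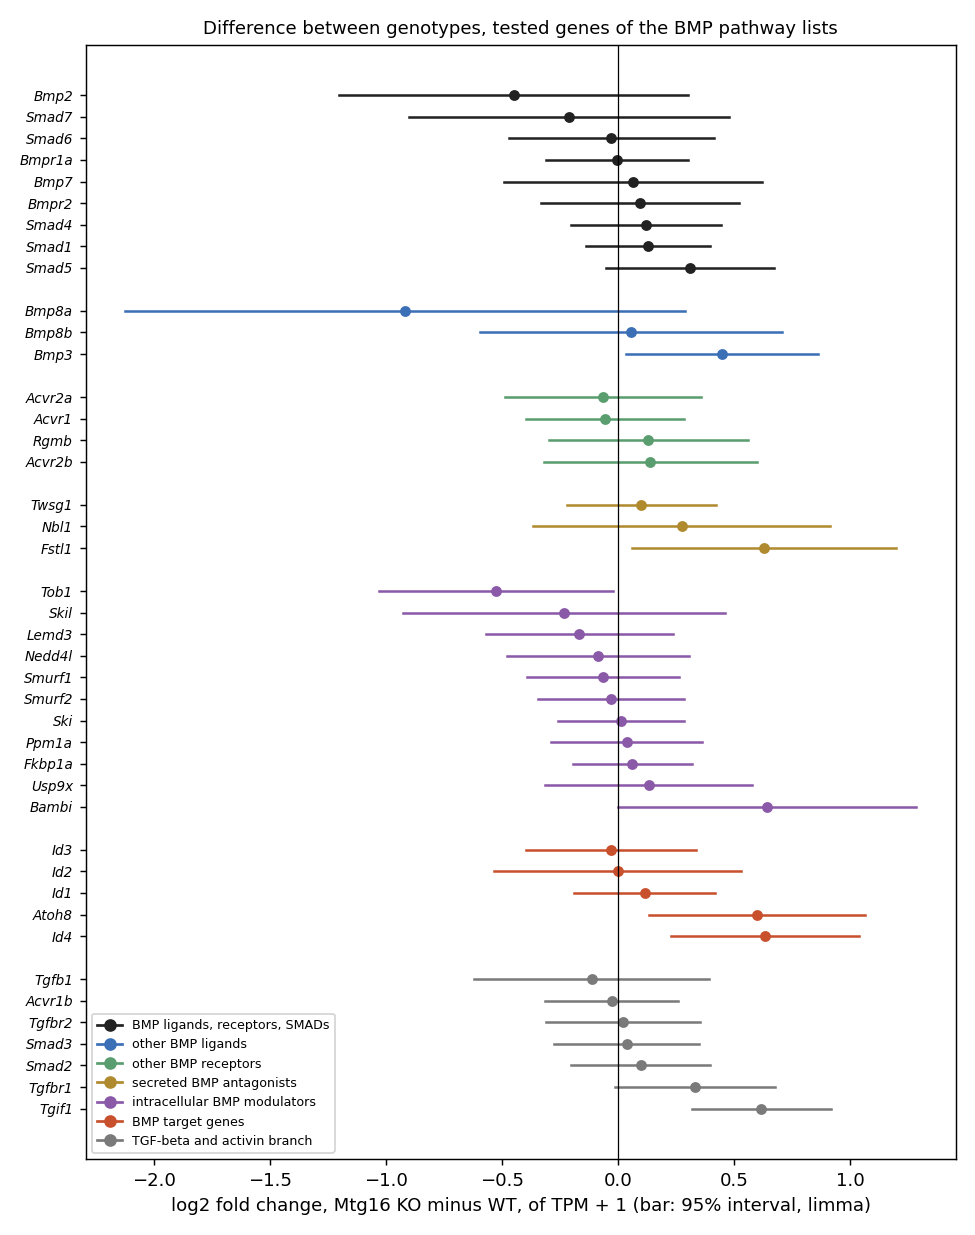
Log2 fold change of TPM + 1, Mtg16 KO minus WT, for the 9 tested components and the 33 tested genes of the pathway lists, with the 95% interval of each from limma as a bar. All 9 components have intervals that include 0, while before adjustment over all genes those of Tgif1, Id4, Atoh8, Bambi, Bmp3 and Fstl1 lie above 0 and that of Tob1 below.

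Of 8 BMP target genes, 5 were tested, and the 3 abundant ones overlapped between the genotypes. Id1, an inhibitor of bHLH transcription factors and the most abundant of the list, had a TPM of 129.8, 128.3 and 130.5 in WT and of 162.3, 138.0 and 123.1 in Mtg16 KO libraries. The 3 WT values lay within the range of the Mtg16 KO values, and the log2 fold change was 0.11 (SE 0.13, limma adjusted p = 0.698). Id3 had a TPM of 117.6, 93.6 and 105.8 in WT and of 119.6, 106.6 and 85.5 in Mtg16 KO libraries, with a log2 fold change of -0.031 (SE 0.16). Id2 had 46.4, 29.3 and 24.7 in WT and 36.4, 27.6 and 33.3 in Mtg16 KO libraries, with a log2 fold change of -0.0017 (SE 0.23). For Id2 the Mtg16 KO values, and for Id3 the WT values, lay inside the range of the other genotype.

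The 2 rarest of the 5 tested targets were those whose groups did not overlap, beside 21.0% of all tested genes (9.94% higher and 11.1% lower). Id4, on chromosome 13 from 48261116 to 48266028, had a TPM of 2.42, 2.06 and 2.11 in WT and of 4.15, 3.52 and 4.21 in Mtg16 KO libraries. Every Mtg16 KO value was above every WT value, and the log2 fold change was 0.63 (SE 0.18, unadjusted p = 0.00698, limma adjusted p = 0.263). Atoh8, a bHLH factor that BMP signaling is known to induce, lies on chromosome 6 from 72206174 to 72235780 and had 1.4, 1.43 and 1.35 in WT and 2.21, 3.26 and 2.47 in Mtg16 KO libraries. Its groups were also apart, with a log2 fold change of 0.60 (SE 0.20, unadjusted p = 0.0183, limma adjusted p = 0.284). For both, the exact permutation test gave p = 0.1 (two-sided), the smallest possible with 3 against 3, and neither passed the threshold over all genes. Across the fits that left out 1 library the log2 fold change stayed between 0.60 and 0.70 for Id4 and between 0.48 and 0.68 for Atoh8. Msx1 and Hey1 were too low to test, and Msx2 was listed at 0 in every library. No difference between Id4 and the other Id genes was tested. Id4 overlaps A330033J07Rik, which was listed at 0 in every library.

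**Figure D5:**
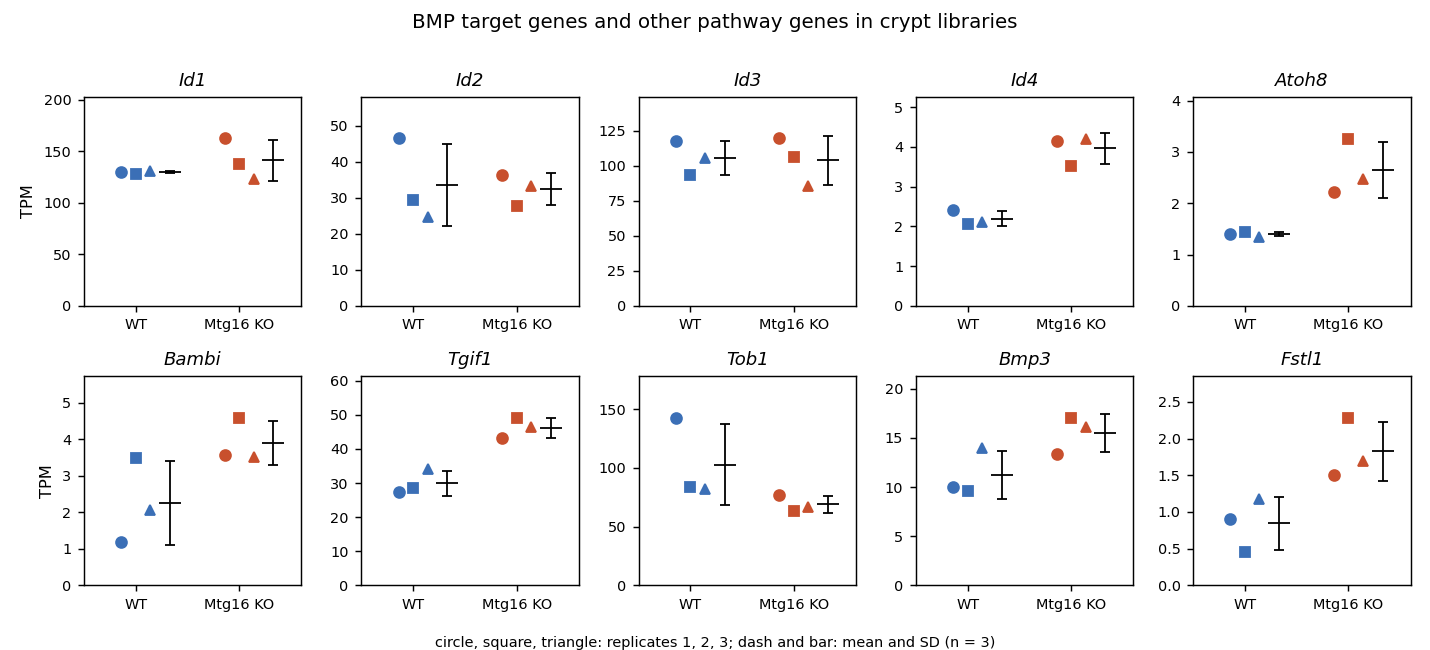
TPM of 5 BMP target genes and 5 other pathway genes in each library, on axes from 0, with replicates 1, 2 and 3 as circles, squares and triangles and the mean and SD beside them (n = 3). Id1, Id2 and Id3 overlap between the genotypes, as does Bmp3, while Id4, Atoh8, Bambi, Tgif1, Tob1 and Fstl1 do not.

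Of 10 other ligands, 3 were tested and Bmp3, an atypical member known to oppose the others, was the most abundant. It lies on chromosome 5 from 98854415 to 98884053 and had a TPM of 10.01, 9.59 and 14.0 in WT and of 13.3, 17.0 and 16.1 in Mtg16 KO libraries. WT replicate 3 lay above Mtg16 KO replicate 1, and the log2 fold change was 0.45 (SE 0.18, unadjusted p = 0.0376, limma adjusted p = 0.318). Seen side by side after the values were known, Bmp2 exceeded Bmp3 in 2 of 3 WT libraries and in 0 of 3 Mtg16 KO libraries, and the log2 ratio overlapped between the genotypes (exact permutation test, two-sided, p = 0.2). Gdf2, Gdf6 and Gdf7 were listed at 0 in every library. Bmp8a, named after its values were seen, had 10.2, 2.35 and 3.65 in WT and 4.30, 1.80 and 0.75 in Mtg16 KO libraries, with a log2 fold change of -0.92 (SE 0.52, limma adjusted p = 0.434).

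Of 8 other receptors and co-receptors, 4 were tested and none was at an unadjusted p under 0.05, beside 14.6% of all tested genes. The most abundant was Rgmb, a membrane-anchored BMP co-receptor that is also enriched in crypt stem cells, with a TPM of 36.0, 47.9 and 46.2 in WT and of 41.7, 60.5 and 41.6 in Mtg16 KO libraries. These overlapped, with a log2 fold change of 0.13 (SE 0.19, limma adjusted p = 0.759). Log2 fold changes of the 4 tested receptors lay between -0.066 and 0.14.

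Secreted antagonists were mostly at the bottom of the scale, with 9 of 12 untested and none of those 9 above a TPM of 0.25, Nog and Grem1 among them. Twsg1, which binds BMPs outside the cell, was the most abundant with a mean TPM of 18.05 and a log2 fold change of 0.10 (SE 0.14, limma adjusted p = 0.748). Fstl1, a secreted glycoprotein of the follistatin-like kind, was low, with a TPM of 0.90, 0.46 and 1.17 in WT and of 1.51, 2.28 and 1.69 in Mtg16 KO libraries. Its groups did not overlap, and the log2 fold change was 0.63 (SE 0.25, unadjusted p = 0.0347, limma adjusted p = 0.313).

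Of 12 modulators inside the cell or at its membrane, 11 were tested, with a median log2 fold change of -0.031. Fkbp1a, which keeps type I receptors inactive without ligand, was the most abundant with a mean TPM of 157.4 and a log2 fold change of 0.060 (SE 0.11, limma adjusted p = 0.821). Bambi, a pseudoreceptor without a kinase, had a TPM of 1.20, 3.48 and 2.07 in WT and of 3.57, 4.58 and 3.51 in Mtg16 KO libraries. The groups were apart by a narrow margin, with a log2 fold change of 0.64 (SE 0.28, unadjusted p = 0.0496, limma adjusted p = 0.341), which was 0.39 without WT replicate 1 (limma adjusted p = 0.559). Tob1, an antiproliferative protein that binds SMADs, had a TPM of 142.4, 83.7 and 82.2 in WT and of 76.7, 63.3 and 66.7 in Mtg16 KO libraries. Its log2 fold change of -0.53 (SE 0.22, unadjusted p = 0.0421, limma adjusted p = 0.325) was -0.27 without WT replicate 1.

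The TGF-beta and activin branch, which shares Smad4 with the BMP branch, had 7 of 12 genes tested. Its most abundant gene, the activin receptor Acvr1b, had a mean TPM of 44.7 and a log2 fold change of -0.028 (SE 0.12, limma adjusted p = 0.930). Tgif1, a co-repressor that binds SMAD2 and SMAD3, lies on chromosome 17 from 70844205 to 70853532 and had a TPM of 27.2, 28.5 and 34.0 in WT and of 43.2, 49.1 and 46.5 in Mtg16 KO libraries. The groups were well apart, and with a log2 fold change of 0.62 (SE 0.13, 95% interval 0.32 to 0.92) it had the smallest p of all 42 tested pathway genes, components included (unadjusted p = 0.0015, limma adjusted p = 0.208). Leaving out 1 library at a time kept the value between 0.56 and 0.71. Tgfbr1, the type I TGF-beta receptor, named because its groups did not overlap, had 8.60, 8.38 and 9.01 in WT and 9.63, 12.8 and 11.2 in Mtg16 KO libraries, with a log2 fold change of 0.33 (SE 0.15, limma adjusted p = 0.355).

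The 6 pathway genes that were higher at an unadjusted p under 0.05 stood beside higher stem cell, Paneth cell and enteroendocrine lists and lower enterocyte markers. In the higher lists 6 of 6 markers each had a positive log2 fold change, led by Olfm4, Defa24 and Chgb in level. Of them 3, 5 and 5 were at an unadjusted p under 0.05. Over all tested genes, 6.53% were higher and 8.05% lower at that limit. Of the goblet cell markers, 5 of 6 had a negative log2 fold change, 2 of them at that limit, Zg16 (-1.28, limma adjusted p = 0.263) and Clca1 (-0.89, limma adjusted p = 0.263). Whether a change in the mix of crypt cells bears on Id4, Atoh8, Bambi, Tgif1, Bmp3 or Fstl1 was not tested.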

How the data were processed

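RNA of 6 crypt samples, 3 WT and 3 Mtg16 KO, was depleted of ribosomal RNA (200 ng input, 14 PCR cycles, per the labels). The authors quantified genes with RSEM and deposited TPM rounded to 2 decimals. The submitters' processing notes name cutadapt 1.9.1, STAR 2.5.2a, RSEM 1.3.0, DESeq2 1.12.3 and mm10. TPM keeps no read number, so depth and counting error are unknown, and no count test was run. The strand setting of the counting is not given in the sources used here.

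TPM was transformed as log2(TPM + 1) and tested with limma 3.58.1 (R 4.3.3, lmFit and eBayes with intensity trend, no covariates) in genes averaging 1 TPM or more, with Benjamini-Hochberg adjustment over all 12268. Such fold changes understate the change of low genes. Single genes were also compared by exact permutation (scipy 1.17.1). The calculation was also run on simulated data with noise drawn separately for each gene. Such data cannot show how the test behaves where libraries share deviations across genes. The series' design calls the samples biological triplicates and does not say whether each is 1 mouse. The components, lists and threshold were chosen with earlier results of these data known. Named genes were all components, pathway genes at an unadjusted p under 0.05, the most abundant gene of each list and the 3 genes most like the component with the largest change. Positions and promoters are RefSeq GRCm38.p6, to which 24076 of 24736 symbols matched. Alternatives were a pseudocount of 0.1, no filter, a minimum of 5, median-ratio and quantile scaling, no trend, robust moderation, array weights, a replicate block, each library left out, and a threshold of 0.05.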

Additional observations from a re-analysis of the deposited data

How the results depend on the processing

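No component was called in any alternative except array weights, where 1 of 9 was (Smad5), beside 6.97% of all tested genes. At an unadjusted p under 0.05 there was 1 component of 9 in each of 5 settings, and 0 otherwise. The shares of all tested genes beside it were 14.8% with median-ratio and 15.1% with quantile scaling. They were 22.7% with array weights, 22.6% with the block and 8.60% without Mtg16 KO replicate 3. Of the other 33 pathway genes, 3 were called with array weights (Atoh8, Id4 and Tgif1), beside 6.97% of all tested genes. With the replicate block 3 were called (Bmp8a, Tgif1 and Tob1), beside 9.79%, and 0 were called otherwise. Over all genes, 4 were called, against 0 without a filter, with median-ratio rescaling, without the intensity trend or at an adjusted p under 0.05, 1 with quantile normalization, 15 at a minimum of 5, 20 with robust moderation, 855 with array weights, 1201 with the block and between 0 and 40 with 1 library left out (40 without WT replicate 1, 9 without WT replicate 3, and 1, 2 and 0 without Mtg16 KO replicates 1, 2 and 3). Nothing in the labels says that the replicate numbers pair the libraries: deviations of same-numbered libraries correlated at r = 0.429, 0.0753 and 0.237 across genes, so the pairing check was not met. Every library except WT replicate 2 correlated best with the same-numbered library of the other genotype. With the block, Bmp2 kept its value of -0.45 with an unadjusted p of 0.0183 (limma adjusted p = 0.134). Signs turned as follows, always with an adjusted p over the threshold: with array weights Bmp7 was -0.067, Bmpr1a 0.032, Smad6 0.12 and Smad7 0.019, and Bmpr1a was 0.017 and 0.059 with median-ratio and quantile scaling. With 1 library left out, Bmp7 ranged from -0.19 to 0.25, Bmpr1a from -0.067 to 0.079, Bmpr2 from -0.047 to 0.21, Smad4 from -0.00089 to 0.22, Smad6 from -0.17 to 0.14 and Smad7 from -0.45 to 0.071. The cause of these turns was not tested. Scaling moved the median of all genes by under 0.1. Depth is unknown, so low genes such as Bmp4, Fstl1 and Atoh8 carry a counting error that cannot be given.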
